A study of Mus musculus with 6 samples.

Results

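The 4 Notch receptor genes of the mouse, Notch1, Notch2, Notch3 and Notch4, were followed in sorted mammary cells by every array probe that the array design names for one of them. These are 6 of 55681 probes, for 4 of the 34964 genes named by the design: 2 probes each for Notch1 and Notch2, and 1 each for Notch3 and Notch4. All samples were RNA from virgin females on a C57/B6 background, on 6 two-colour arrays. The basal cells were sorted as CD24+ CD29-high, called mammary stem cells in the labels, from Dll1-mCherry reporter mice: the Dll1-high state was mCherry+ and the Dll1-low state mCherry- (1 array each). The macrophages were F4/80+ cells of the mammary gland from Dll1 conditional knockout (KO) mice and from their wild type (WT) littermates (2 arrays each). The labels name neither the Cre driver nor the deleted exons, so the cell type that lost Dll1 is not given, and they do not say whether arrays of a group came from separate animals. Gene p-values therefore measure only the spread between these samples. As each basal state had 1 array, that spread is the one between macrophage arrays of a genotype, also where basal cells are compared with macrophages.

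Notch receptors are single-pass membrane proteins that bind ligands of the Delta and Jagged families on a neighbouring cell. Binding exposes the receptor to cleavage by an ADAM metalloprotease and then by gamma-secretase, and the freed intracellular domain enters the nucleus, where it joins Rbpj and Mastermind proteins to switch on target genes. Dll1 is one of the Delta ligands, and the series asks how Dll1 on mammary stem cells signals to macrophages beside them, so the receptors were read on both sides of that contact.

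The probe sequences are shown because probes of the same gene gave different answers, so what each one reads matters. Each probe is a 60-base oligonucleotide that was spotted once per array, and its position is on mm9, per the file headers. The upstream Notch1 probe lies at chr2:26319440-26319499 on the minus strand, and the other Notch1 probe at chr2:26314630-26314689, 4810 bases further along the gene in the direction of transcription. The upstream Notch2 probe lies at chr3:97951233-97951292 on the plus strand, and the other Notch2 probe at chr3:97953914-97953973, 2681 bases downstream. The Notch3 probe lies at chr17:32257848-32257907 on the minus strand and the Notch4 probe at chr17:34725120-34725179 on the plus strand. An mm9 annotation was not used here, so exons are not given. The upstream probes are printed whole and the first 30 bases of the others, 5′ to 3′, with no part in capitals.
Notch1 upstream probe: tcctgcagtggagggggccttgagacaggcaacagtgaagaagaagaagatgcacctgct
Notch1 downstream probe: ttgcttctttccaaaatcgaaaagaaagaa
Notch2 upstream probe: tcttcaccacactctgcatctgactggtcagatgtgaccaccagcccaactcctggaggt
Notch2 downstream probe: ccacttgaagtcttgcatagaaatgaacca
Notch3 probe: gcctaatagaaatgtttttaggctgttttt
Notch4 probe: gttgatttcgagaatccctaaactctggaa
Over all 60 bases, both upstream probes have a GC content of 55.0%. The downstream probes of Notch1 and Notch2 have 40.0% and 41.7%, the Notch3 probe 38.3% and the Notch4 probe 43.3%, also over all 60 bases and not the part printed.

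Every receptor value is a log2 ratio of the sample (Cy5) over a common reference RNA (Cy3) pooled from 11 cell lines of the mouse, so a ratio of 0 is the level of that mix and ratios of different receptors give no order of abundance. The sample channel was well above background for 86.0% to 88.1% of spots in basal cells and for 47.4% to 71.9% on the macrophage arrays. Most markers followed the labelled cell types. In basal cells minus macrophages, 11 of 12 basal markers were positive and Trp63 was not (-0.68). Of 12 macrophage markers 11 were negative and Mertk was not (0.16). Mylk (0.15) and Itgam (-0.09) hardly differed. The median log2 ratio of 12 basal markers was 3.78 to 3.80 in basal cells and 0.29 to 0.73 in macrophages, while that of 12 macrophage markers was 0.14 to 0.19 in basal cells and 2.02 to 4.07 in macrophages. WT replicate 1 stood apart. Over all probes it correlated with WT replicate 2 at r = 0.422, whereas KO replicate 2 and WT replicate 2 correlated at 0.949 across genotypes, and it had the lowest macrophage marker median. The main Dll1 probe, which is not known to lie in the deleted part of the gene, read 0.80 and 2.25 in KO macrophages and 0.78 and 3.24 in WT macrophages (difference -0.49, SE 1.03), so it does not separate the genotypes, and it read 3.94 in Dll1-high against 3.26 in Dll1-low cells. In these bulk samples fewer cells of a type and less RNA per cell cannot be told apart.

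Signal for all 4 receptors was found in both cell types, for Notch1 by 1 of its 2 probes. The probes of Notch3 and Notch4, the upstream probe of Notch1 and the downstream probe of Notch2 were well above background in the sample channel on all 6 arrays. The upstream Notch2 probe was so on 5 of 6 arrays, missing in KO replicate 2, and the downstream Notch1 probe on none. This call does not tell the cell types apart. By it, 11 or 12 of the 12 basal markers had signal on each macrophage array, and 12 of 12 macrophage markers on both basal arrays. A receptor's signal in a sample thus does not show which cells carried it. No spot of the 6 probes was saturated. None of the receptor probes differed between basal cells and macrophages, or between KO and WT macrophages, past an adjusted p of 0.05, and none differed by 2-fold between Dll1-high and Dll1-low cells.

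**Figure D1:**
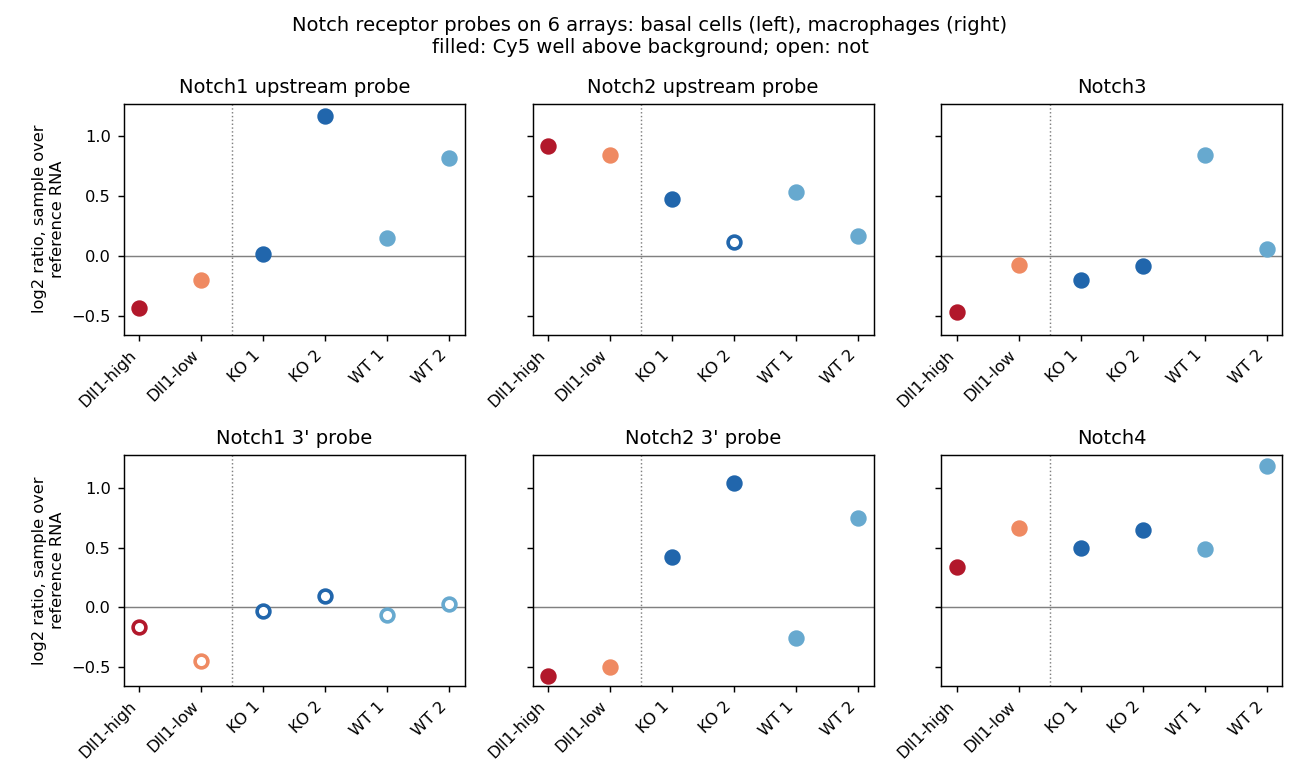
Log2 ratio of sample over reference RNA for the 6 Notch receptor probes on each array, with basal cells left of the dotted line and macrophages right of it; points are single arrays, and open points were not well above background. The downstream Notch1 probe is open on all 6 arrays, and the Notch2 probes place basal cells on opposite sides of the macrophages.

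Notch1, a receptor with broad roles in progenitor fate and in T cell development, was read by its upstream probe. The ratio was -0.43 in Dll1-high cells and -0.20 in Dll1-low cells, 0.02 and 1.17 in KO macrophages, and 0.15 and 0.81 in WT macrophages. Both basal values lay below all 4 macrophage values, and within each macrophage genotype replicate 2 lay above replicate 1. KO macrophages averaged 0.59 ± 0.81 and WT macrophages 0.48 ± 0.47 (SD, n = 2 each), which differ by much less than their spread. In order of level, Dll1-high cells were lowest, then Dll1-low cells and then both macrophage groups. The spot was dim: its Cy5 signal was 246 and 267.5 in Dll1-high and Dll1-low cells over a background of 80 and 79, while macrophages had 145 to 272 over 68 to 74. The downstream Notch1 probe, with Cy5 signals of 118.5 and 125 in basal cells and 72 to 84 in macrophages, gives no fold.

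Notch2, which in mice is needed for several myeloid and B cell fates, was read first by its downstream probe. The ratio was -0.57 in Dll1-high and -0.50 in Dll1-low cells, 0.42 and 1.04 in KO macrophages, and -0.26 and 0.75 in WT macrophages. In this main (loess) normalization both basal values lay below all 4 macrophage values, and WT replicate 1 was the lowest of the macrophages. By the scanner's processed signals WT replicate 1 (-0.86) lay below Dll1-high (-0.68) and Dll1-low cells (-0.72). After median centring it did so too (-2.44 against -0.70 and -0.67). With loess, KO macrophages averaged 0.73 ± 0.43 and WT macrophages 0.24 ± 0.71 (SD, n = 2 each), which are closer than the spread of the WT arrays. In order of level after loess, Dll1-high cells were again lowest, then Dll1-low cells, WT and KO macrophages. Cy5 signals were 2130 and 2172 in Dll1-high and Dll1-low cells, 2230.5 and 1577 in KO, and 363 and 1857.5 in WT macrophages. The reference signal of the same spot was 2407 and 2377.5 on the basal arrays and 1319 to 1862 on the macrophage arrays. Only the sample channel of WT replicate 1 was out of the range of the others.

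The upstream Notch2 probe read the other way between the cell types. Its ratio was 0.92 in Dll1-high and 0.85 in Dll1-low cells, 0.48 and 0.12 in KO macrophages, and 0.53 and 0.17 in WT macrophages. Both basal values lay above all 4 macrophage values in this main (loess) normalization. By the scanner's processed signals they did not. There KO replicate 1 (1.24) and WT replicate 1 (1.38) read above both Dll1-high (1.21) and Dll1-low cells (1.12). The spot was dim on the macrophage arrays, with Cy5 signals of 92.5 to 234 over a background of 63 to 66, against 646 and 740 in Dll1-high and Dll1-low cells over 78 and 80. The direction of the Notch2 difference between the cell types thus depends on the probe.

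**Figure D2:**
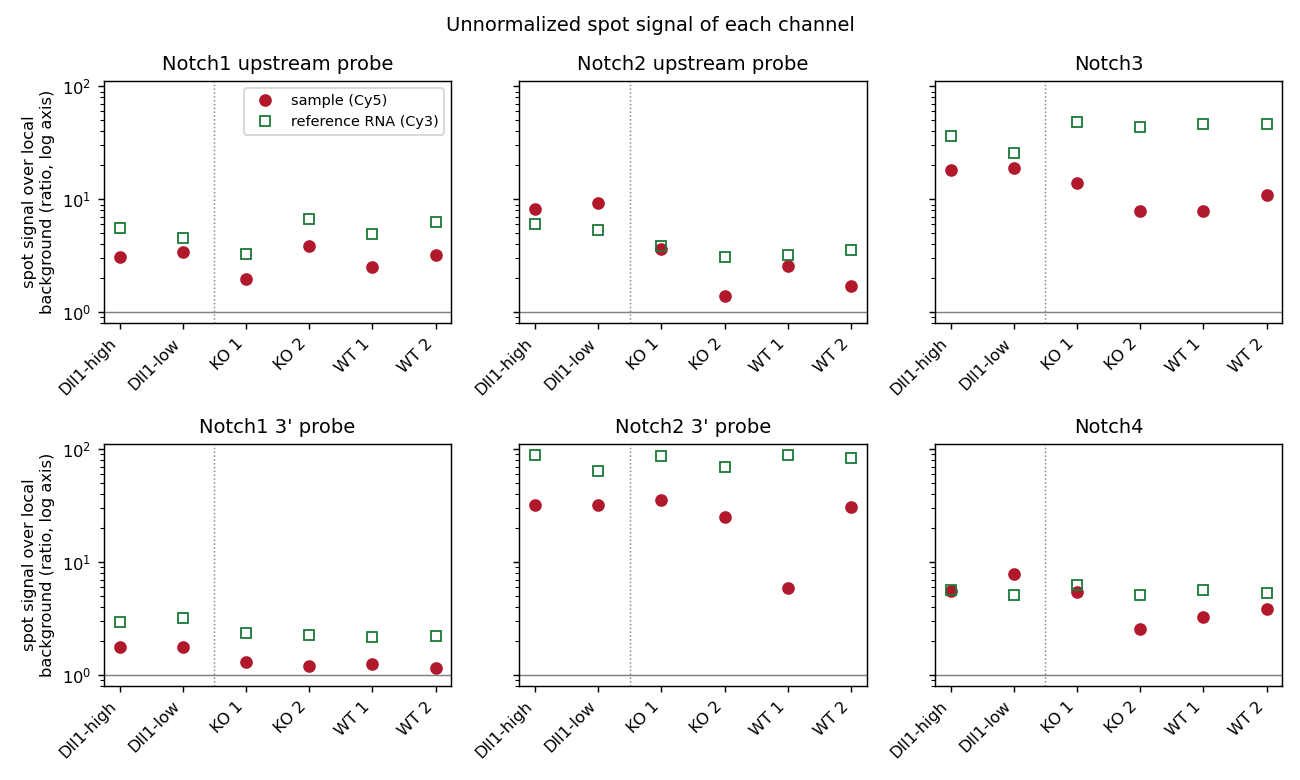
Spot signal over local background, before normalization, in the sample channel (filled circles) and the reference channel (open squares), on a log axis, for each probe and array. The downstream Notch2 spot has a sample signal of 5.95 times background in WT replicate 1 and 25.0 to 35.4 times on the other arrays, while its reference signal stays between 64.3 and 89.1 times.

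Notch3, best known as the receptor of vascular smooth muscle cells and pericytes, read -0.47 in Dll1-high and -0.07 in Dll1-low cells, -0.20 and -0.09 in KO macrophages, and 0.84 and 0.06 in WT macrophages. Both KO values lay below both WT values, and WT replicate 1 alone was far from 0. KO macrophages averaged -0.14 ± 0.08 and WT macrophages 0.45 ± 0.55 (SD, n = 2 each). In order of level, Dll1-high cells were lowest, then KO macrophages, Dll1-low cells and WT macrophages. Dll1-low cells lay within 1 SD of both macrophage means. Cy5 signals were 1319 and 1475 in Dll1-high and Dll1-low cells, 924 and 511 in KO and 486 and 706 in WT macrophages. Before normalization, then, the spot of WT replicate 1 had the lowest sample signal of the 6 arrays.

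Notch4, the receptor known mainly from endothelial cells, read 0.34 in Dll1-high and 0.66 in Dll1-low cells, 0.50 and 0.64 in KO macrophages, and 0.49 and 1.18 in WT macrophages. WT replicate 2 was the highest array, and the ranges of the cell types and of the genotypes overlapped. KO macrophages averaged 0.57 ± 0.10 and WT macrophages 0.84 ± 0.49 (SD, n = 2 each), which differ by less than the WT spread. In order of level, Dll1-high cells were lowest, then KO macrophages, Dll1-low cells and WT macrophages. Cy5 signals were 423 and 579.5 in Dll1-high and Dll1-low cells, 356 and 165.5 in KO and 206.5 and 241 in WT macrophages. The Notch4 ratio was above 0 on all 6 arrays.

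Basal cells and macrophages were compared first, to see which receptors each side carries. By limma, 0 of the 5 receptor probes tested passed an adjusted p of 0.05, and 0% of the 47326 probes tested did, where the smallest adjusted p was 0.0528. At an unadjusted p under 0.05, 0 of 5 receptor probes and 13.1% of all probes passed. Both basal arrays lay below all 4 macrophage arrays for 2 of the 5 receptor probes and for 17.3% of all probes. Both lay above for 1 receptor probe and for 15.8% of all probes. By the scanner's processed signals the basal and macrophage arrays overlapped for both Notch2 probes, while the upstream Notch1 probe still lay below in basal cells.

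The downstream Notch2 probe had the largest of these differences in size, -1.02 (SE 0.41, 95% interval -2.18 to 0.14, limma adjusted p = 0.444), which is 1 of 5 receptor probes, and 12.2% of all probes, to reach 2-fold. It differed by -0.32 after median centring and by -0.23 as the mean of both Notch2 probes. The upstream Notch1 probe was further apart than it by the processed signals (-1.34 against -0.94), by the Cy5 channel alone (-1.20 against -1.03) and after median centring (-0.59 against -0.32). The upstream Notch2 probe differed by 0.56 (SE 0.24, interval -0.11 to 1.23, limma adjusted p = 0.471). By the processed signals that probe differed by 0.28. The upstream Notch1 probe differed by -0.86 (SE 0.45, interval -2.14 to 0.43, limma adjusted p = 0.586). Notch3 and Notch4 differed by -0.42 (SE 0.30) and -0.20 (SE 0.28), with limma adjusted p of 0.720 and 0.907, and after median centring by 0.38 and 0.10, where the median of all probes was 0.14. The interval of Notch3 ran over -1.28 to 0.43 and that of Notch4 over -1.01 to 0.60, so all 5 intervals leave room for a difference of over 2-fold. These SEs and intervals hold no spread between basal samples. The cell types were on different slides, scanned with different software versions, so slide and cell type cannot be told apart.

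**Figure D3:**
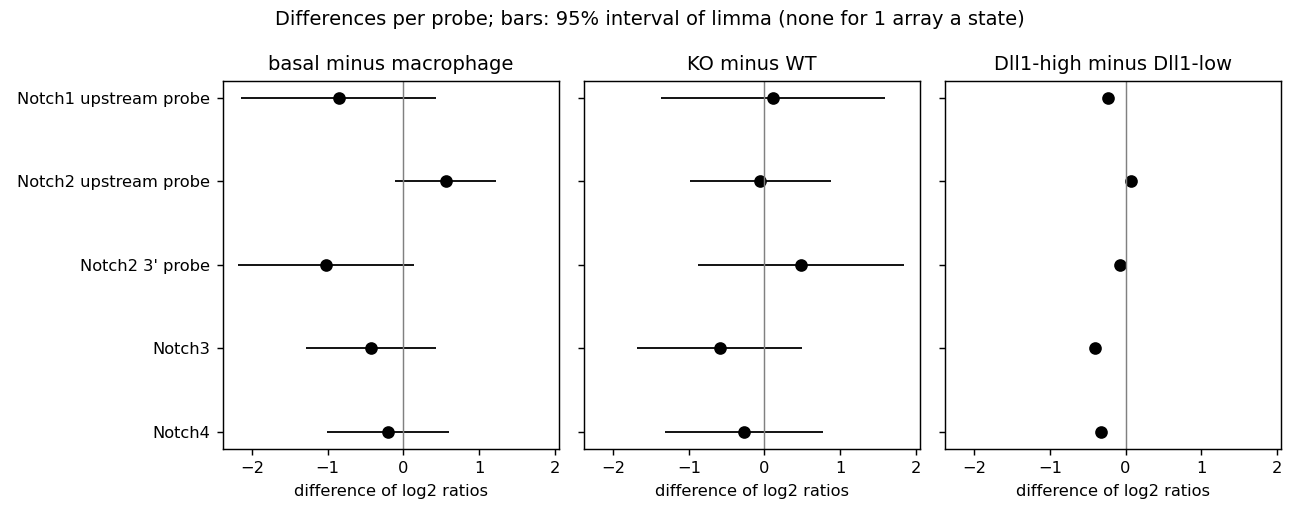
Difference of log2 ratios for the 5 receptor probes that were tested, in basal cells minus macrophages, KO minus WT macrophages and Dll1-high minus Dll1-low cells; bars are 95% intervals of limma, and there are none where each state has 1 array. All 10 intervals include 0.

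KO and WT macrophages were compared to see whether receptor RNA on the macrophage side differs where Dll1 was targeted. By limma, 0 of 5 receptor probes and 0% of the 34554 probes tested passed an adjusted p of 0.05, and the adjusted p of each receptor probe was 1.00 after rounding. At an unadjusted p under 0.05, 0 of 5 receptor probes and 0.142% of all probes passed. Notch3 was the only receptor with both KO arrays below both WT arrays, as 12.9% of all probes were, and 0 receptor probes had both KO arrays above both WT arrays, as 7.36% of all probes did.

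Notch3 differed by -0.59 (SE 0.40, 95% interval -1.68 to 0.50), with -1.04 between the arrays numbered 1 and -0.15 between those numbered 2. Without WT replicate 1 the difference was -0.20. The downstream Notch2 probe differed by 0.48 (SE 0.50, interval -0.88 to 1.85), with 0.68 and 0.29 within replicate numbers 1 and 2, and by -0.02 without WT replicate 1. These 2 probes thus take most of their difference from that 1 array. The replicate number also marks the slide row, with the arrays numbered 1 in one row and those numbered 2 in the other. Both KO arrays were in slide column 4 and both WT arrays in column 3, so genotype and slide column cannot be told apart.

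The other probes lay closer together. The upstream Notch1 probe differed by 0.11 (SE 0.54, interval -1.37 to 1.59), with -0.13 and 0.35 within numbers 1 and 2. The upstream Notch2 probe differed by -0.05 (SE 0.34, interval -0.98 to 0.88), with -0.06 and -0.05. Notch4 differed by -0.27 (SE 0.38, interval -1.31 to 0.78), with 0.01 and -0.54. All 3 changed sign with 1 array left out: leaving out KO replicate 2 gave -0.47 for Notch1, leaving out WT replicate 1 gave -0.22 for it, either omission gave 0.13 for upstream Notch2, and leaving out WT replicate 2 gave 0.08 for Notch4.

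For the downstream Notch2 and Notch3 spots, the normalization moved WT replicate 1 more than any other array. Loess raised the log2 ratio of the downstream Notch2 spot by 2.18 and that of Notch3 by 2.12 on this array, against at most 0.55 and 0.56 on the other macrophage arrays. Loess moved the upstream Notch1, upstream Notch2 and Notch4 spots by 0.02, -0.09 and 0.22 in WT replicate 1, less than on some other arrays. With each array only centred on its median, these spots read -2.44 and -1.28 in WT replicate 1, where probes of like brightness had medians of -2.12 and -2.03. The median KO minus WT difference of all probes was 0.39 after this centring and -0.07 after loess. With centring, Notch3 differed by 0.45, Notch4 by 0.08, the upstream Notch2 probe by 0.13, the upstream Notch1 probe by 0.21 and the downstream Notch2 probe by 1.50. Relative to the median of all probes, the Notch3 difference was 0.06 after centring and -0.52 after loess, that of the upstream Notch1 probe -0.18 and 0.18, and that of the upstream Notch2 probe -0.26 and 0.02. The Notch4 difference relative to that median was -0.31 after centring and -0.20 after loess, and that of the downstream Notch2 probe 1.11 and 0.56. So Notch3 and the upstream Notch2 probe, the second close to 0 after loess, change direction with the normalization whether or not the median of all probes is taken off. Notch4 does so only before it is taken off, and the upstream Notch1 probe only after. The downstream Notch2 difference was positive in all 4 values.

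**Figure D4:**
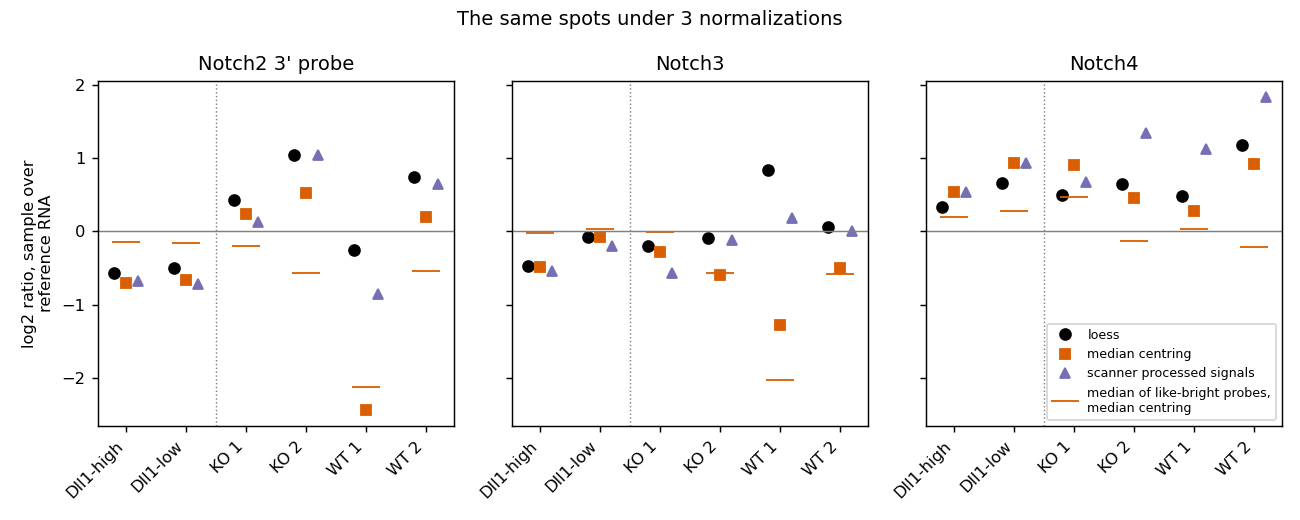
Log2 ratio of the downstream Notch2, Notch3 and Notch4 spots on each array after loess (circles), after median centring (squares) and from the scanner's processed signals (triangles); dashes are the median of probes of like brightness after median centring. In WT replicate 1 the median-centred values lie at -2.44 for Notch2 and -1.28 for Notch3, far below the other arrays.

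Markers of vessel cells were read beside these values. Of 12 endothelial markers 11 could be tested, and all 11 lay lower in KO than in WT macrophages, with a median difference of -0.69, and 0 passed the test. After median centring 8 of 11 lay lower (median -0.02, against 0.39 over all probes), and without WT replicate 1, with loess, 10 of 11 did (median -1.02). The summed linear ratio of the 12 was 58.3 and 102 in KO against 145 and 240 in WT macrophages. WT replicate 2, the highest, was also the array with the highest Notch4. WT replicate 1, with the next highest sum, had the lowest Notch4 of the macrophage arrays, 0.49. Dll1-low cells, with a sum below that of every macrophage array, had a Notch4 of 0.66, next below WT replicate 2. Cdh5, the cadherin of endothelial junctions, read 3.97 and 4.42 in KO against 5.96 and 6.66 in WT macrophages, and Erg was not above background on any array. In basal cells 10 of 11 endothelial markers lay lower in the Dll1-high than the Dll1-low state (median -0.30, summed ratio 37.8 against 44.1), in the same direction as Notch4. Likewise 9 of 10 fibroblast (median -0.54), 9 of 12 luminal (median -0.18) and 9 of 12 macrophage markers (median -0.16) also lay lower in Dll1-high cells, against a median of -0.03 over all probes. The part of endothelial RNA in the Notch4 values was not tested.

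The 7 pericyte and vascular smooth muscle markers had a summed linear ratio of 21.2 and 12.05 in KO against 65.7 and 14.0 in WT macrophages, and 11.97 in Dll1-high against 14.5 in Dll1-low cells. The highest sum was that of WT replicate 1, which also had the highest Notch3, and it came mostly from Mcam, an adhesion molecule of pericytes and endothelium, at 5.88 there. KO replicate 1, with the next highest sum, had the lowest Notch3 of the macrophage arrays, -0.20. All 7 markers were well above background in KO replicate 1 and in both basal samples. Pdgfrb, Kcnj8 and Des were not in KO replicate 2, Des in WT replicate 1, and Cspg4 and Des in WT replicate 2. Of the 6 markers tested, 4 lay higher and 2 lower in KO than in WT macrophages, with 0 passing the test. The part of pericyte RNA in the Notch3 values was not tested. Of other markers, 10 of 12 macrophage, 5 of 5 B cell, 4 of 5 T cell and 5 of 12 luminal markers lay higher in KO than in WT macrophages, as did 1 of 10 fibroblast markers, with 0 passing. Without WT replicate 1 the macrophage markers split 6 to 6, and 7 of 10 fibroblast markers lay higher (median 0.30, against -0.53 with that array). After median centring 8 of 10 fibroblast, 11 of 12 luminal and 12 of 12 macrophage markers lay higher in KO.

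Dll1-high and Dll1-low basal cells had 1 array each, in slide columns 3 and 4, so the differences have no replicate check. Of the 5 receptor probes 0 reached 2-fold. Of the 49642 probes compared, 0.155% did, with 0.0786% at or past this fold above and 0.0765% below in Dll1-high cells. Notch3 differed by -0.40, Notch4 by -0.32 and the upstream Notch1 probe by -0.23. By the Cy5 channel alone, Notch3 differed by -0.20, Notch4 by -0.36 and the upstream Notch1 probe by -0.07, and the mean of both Notch1 probes differed by 0.03. The Notch2 probes differed by 0.07 upstream and -0.07 downstream. So 4 of 5 receptor probes read lower in the Dll1-high state, as did 55.4% of all probes, although the downstream Notch2 probe was at 0.04 by the processed signals and the upstream one at -0.11 by the Cy5 channel alone.

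For scale, probes spotted 10 times gave a spot SD of this difference of 0.130 at the median and 0.259 at the 95th percentile, which covers the error of spots on these 2 arrays and not that of cells or animals. Of all probes, 8.54% were at least as far apart as Notch3, 14.6% as Notch4 and 28.1% as Notch1. The Notch2 probes were nearer together than most, with 72.8% and 73.4% of probes at least as far apart as the upstream and the downstream one. Dll1 itself differed by 0.68 by its main probe, and by 0.14 by its other probe, which was spotted once.

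The other genes of the pathway were read from 6 lists that hold 53 genes, 52 of them on the array. Between KO and WT macrophages 49 could be tested: 25 lay higher and 24 lower in KO, 0 passed, and the median difference was 0.01 against -0.07 over all probes. This split rests on the normalization and on WT replicate 1: after median centring 45 lay higher and 4 lower (median 0.83, against 0.39 over all probes), and with loess but without that array 18 lay higher and 31 lower. Both genes that reached 2-fold had negative differences, Dlk1, a non-canonical ligand, of -1.23 and Numbl, a relative of the Notch inhibitor Numb, of -1.10. The share of all probes at 2-fold was not counted for KO minus WT, so it is not known whether this count stands out. Dlk1 read -4.42 and -4.63 in KO against -2.42 and -4.17 in WT macrophages, so WT replicate 1 alone stood apart. Between Dll1-high and Dll1-low cells 23 lay higher and 29 lower, with a median of -0.01 against -0.03 over all probes, and 0 reached 2-fold.

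Between basal cells and macrophages 50 of the pathway genes were tested, and 0 passed. In basal cells, 6 genes lay higher and 7 lower by a factor of 2 or more, while 12.2% of all probes were at least 2-fold apart. Each pathway gene was read by its probe of highest mean signal, so these shares are not like for like. The median over the 50 was -0.04 against -0.03 over all probes. With loess 23 of 50 lay higher in basal cells, and 35 after median centring (median 0.43, against 0.14 over all probes). Of the 7 ligands 5 lay higher in basal cells, and all 7 after median centring. Jag2 differed by 2.68 (SE 0.56), Dll1 by 1.83 (SE 0.92) and Jag1 by 1.14 (SE 0.41). Jag2 read 3.29 in Dll1-high and 3.08 in Dll1-low cells, -0.20 and 1.10 in KO, and 0.03 and 1.10 in WT macrophages, so basal and macrophage arrays did not overlap. Dll1 in WT replicate 2 reached 3.24, close to the 3.26 of Dll1-low cells. Dll4, a ligand of endothelium, differed by 0.19 (SE 0.35).

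In the steps after ligand binding, Adam17, a receptor-cleaving protease, differed by -1.11 (SE 0.78) and Psen2, a catalytic subunit of gamma-secretase, by -1.53 (SE 0.51). Rbpj, the DNA-binding partner of the cleaved receptor, differed by -1.02 (SE 0.32), reading -2.19 in Dll1-high and -2.01 in Dll1-low cells, -0.90 and -0.78 in KO, and -1.74 and -0.90 in WT macrophages. Of the listed glycosyltransferases that act on the receptors, 4 were tested and 0 reached 2-fold. Mfng, a Fringe enzyme, had no value in KO replicate 1 and was not tested. It read -1.50 in Dll1-high and -1.49 in Dll1-low cells, 2.40 in KO replicate 2, and 1.02 and 2.64 in WT macrophages. Among regulators of receptor turnover, the Deltex family members Dtx2 and Dtx1 differed by -1.66 (SE 0.28) and -1.29 (SE 0.84), and Numbl by 1.72 (SE 0.48).

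Targets split in direction. Of 13 tested, 4 lay higher and 9 lower in basal cells, with a median of -0.23. Gata3, a transcription factor that is a Notch target in T cells and a luminal regulator in the mammary gland, differed by 2.12 (SE 0.30), and Ccnd1, a cyclin of the G1 phase, by -1.53 (SE 0.19, limma adjusted p = 0.0864). Il2ra, an interleukin receptor chain, differed by -1.31 (SE 0.47), and Dtx1, which is on this list too, by the -1.29 given above. Of the canonical targets of the Hes and Hey families, Hes5 differed by -0.89 (SE 0.68), Hes7 by 0.35 (SE 0.72), Hes1 by -0.67 (SE 0.56), Hey1 by -0.17 (SE 0.18) and Heyl by -0.47 (SE 0.34), while Hey2 was above background on 1 array and was not tested. Hes1 read -0.25 in Dll1-high and -0.31 in Dll1-low cells, 0.05 and 0.93 in KO, and -0.41 and 1.02 in WT macrophages.

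**Figure D5:**
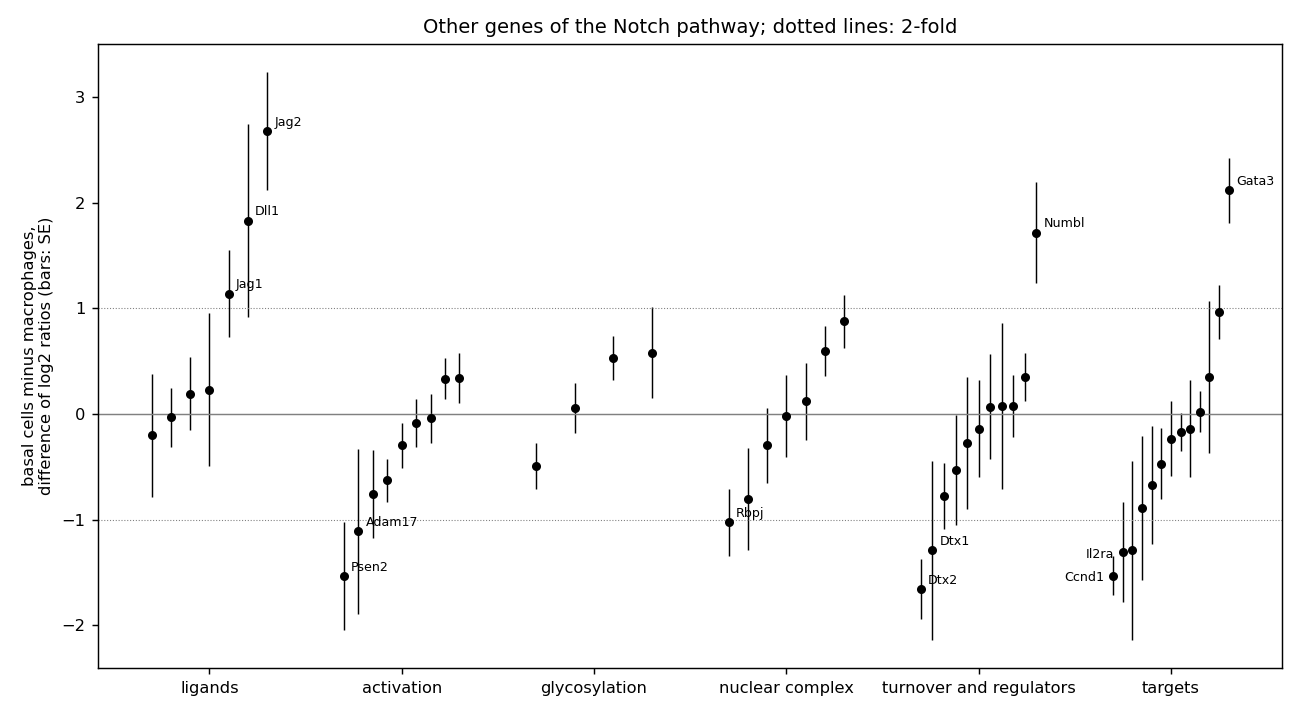
Basal cells minus macrophages, as the difference of log2 ratios, for the other tested genes of the Notch pathway by list; points are genes, bars are SE and dotted lines mark 2-fold. The genes at least 2-fold apart that the text describes are named, 1 gene is not drawn, and Dtx1 and Nrarp are members of 2 lists. Jag2 has the highest difference, 2.68, and Dtx2 the lowest, -1.66.

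Genes with the profile most like each receptor were found by the root mean square difference of log2 ratios over the 6 arrays, after each profile was centred on its own mean. The search covered 20103 genes with a symbol that were well above background in Cy5 on at least 2 of the 6 arrays. These are descriptions, since 6 arrays of 2 cell types share slides and a reference. The downstream Notch2 probe was closest to Gpbp1 (0.070), then to Eri1, Afg3l1, Dhx40 and Cept1. Notch3 was closest to Cers5 (0.053), then to BC055324, Mras, Sars2 and 4930591A17Rik. Notch1 was closest to Mrpl1 (0.085), then to Rundc3b, BC048403, Tmem191c and Eif4g3, and Notch4 to Tgfa (0.090), then to Slc22a15, Klhl35, Chrnd and Cd226. None of these 20 genes is a member of the pathway lists.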

How the data were processed

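RNA was measured on 6 two-colour Agilent arrays. Per the file headers, the deposited spot and background signals are intensity values, unprocessed, and the log ratio is the log10 of the scanner's processed sample over reference signal. The deposited table of values by the authors gives log2 ratios, within 0.01 of the scanner's ratio for 79.1% to 97.3% of probes per array. The scanner software was Agilent Feature Extraction 11.0.1.1 for basal cells and 12.0.2.2 for macrophages, per the file headers (11.0 per the submitters' processing notes). No dye swap was made.

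Median signals were corrected with normexp (offset 50) and log2 ratios were loess-normalized array by array, in R 4.3.3 with limma 3.58.1 (tables read by data.table, version 1.17.8). Spots marked as outliers (170 to 500 of 62976 an array) were left out and spots averaged to 55681 probes. Probes well above background in Cy5 on at least 2 of 4 macrophage arrays, 1 of 2 basal arrays or 2 of 6 arrays entered the comparison concerned. One limma fit on 4 groups used probes with a value on all 6 arrays, with Benjamini-Hochberg adjustment at 0.05. The number of arrays limits the precision. The KO minus WT fit was run on simulated data with independent noise. That noise held no shift of a whole array and no deviation shared by replicate number. The check required only that the median estimate lay near the change put in.

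The receptors and gene lists were chosen with earlier results of these data known. A gene was read by its probe of highest mean signal. Named genes are the receptor probes, pathway genes at least 2-fold apart or the largest of a list, and the 5 genes most like each receptor. Dll4, Mfng, Hes1, Hey1, Hey2 and Heyl were added after their values were seen. The arrays of replicate number 1 and of number 2 deviated together (r = 0.575 over 34554 probes), but 2 pairs do not show pairing, so the fit has no block. Alternatives chosen after seeing the data were the lists under other scalings and without WT replicate 1. The other alternatives covered background correction, normalization, channel, filter, probe choice, replicate block and each array left out. The values of 1 gene of the pathway lists, which the counts include, are not reported here.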

Additional observations from a re-analysis of the deposited data

How the results depend on the processing

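No Notch receptor probe passed under any alternative run, and KO minus WT calls over all probes stayed at 0. Reversed in KO minus WT were the upstream Notch2 probe with no background subtraction (0.0043), median centring (0.13) and the Cy5 channel alone (0.0060), Notch3 with median centring (0.45), Notch4 with median centring (0.083) and within number 1 (0.0074), and the upstream Notch1 probe with Cy5 alone (-0.0011) and within number 1 (-0.13). With median centring, basal minus macrophage turned to 0.38 for Notch3 and 0.10 for Notch4. Leaving out each array in turn gave, for KO minus WT, -0.47 to 0.68 for upstream Notch1, -0.018 to 0.99 for downstream Notch2, -0.24 to 0.13 for upstream Notch2, -0.98 to -0.20 for Notch3 and -0.62 to 0.081 for Notch4. The cause was not tested. Probes at least 2-fold apart between Dll1-high and Dll1-low cells numbered 77, but 2044 with processed signals, 2045 in the authors' table and 46 with gene means. Basal minus macrophage calls over all probes were 0, but 246 with gene means and 375 among probes above background on every array, which are fewer tests. With the replicate block, 0 receptor probes and 0 of all probes passed in KO minus WT (192 at an unadjusted p under 0.05), and the receptor differences had limma adjusted p of 0.966 to 0.992. A fit with 1 array left assumes it varies like the others.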
